A study of Homo sapiens with 6 samples.

Results

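The genes that break down tryptophan along the kynurenine route (TDO2, IDO1, IDO2, AFMID, KMO, KYNU, HAAO and QPRT) were compared in carfilzomib-resistant LP-1/Cfz and unselected LP-1 cells, together with the aryl hydrocarbon receptor gene AHR and its repressor AHRR. They were taken as every probe set of the array whose annotation names 1 of these 10 symbols alone. This gave 17 of 54613 probe sets, and 10 of 19775 genes. The LP-1 line was derived from human multiple myeloma, a cancer of plasma cells. LP-1/Cfz is a derivative of it that withstands 12 nM carfilzomib, an inhibitor of the proteasome, and was kept for 1 week without the drug before RNA was taken. The LP-1 cells were never selected in carfilzomib, and each group had 3 samples on Affymetrix U133 Plus 2.0 arrays. LP-1/Cfz is 1 derivative of 1 line, and whether the triplicates came from separate cultures is not stated. The p-values therefore speak only of the scatter among these 6 samples, which may be technical.

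Tryptophan can be opened at its indole ring by the haem enzymes TDO2, IDO1 and IDO2. TDO2 is best known from the liver, and IDO1 is induced by interferon gamma in many cells. AFMID then releases kynurenine, KMO adds a hydroxyl group to it, KYNU splits off alanine, HAAO opens the remaining ring and QPRT turns the resulting quinolinate into a precursor of NAD. Kynurenine and kynurenic acid are ligands of AHR, a receptor that enters the nucleus, pairs with ARNT and switches on genes such as CYP1A1 and AHRR. AHRR competes with AHR for ARNT and so closes a feedback loop.

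The values are log2 values relative to a baseline of each probe set that no source states. A difference between arrays can be read from them, but not how strongly a gene was expressed, and no gene's level can be set against another's. The level of plasma cell markers could therefore not be checked either. In the difference between the groups at the gene level, 4 of 10 plasma cell markers rose and 2 fell. Of all genes, 6.72% rose and 10% fell. The largest rises were in MZB1 (log2 fold change 0.39), SDC1 (0.38) and TNFRSF17 (0.27), and the falls in CD38 (-1.07) and SLAMF7 (-2.17). None of 9 measured hepatocyte markers and none of 9 myeloid markers passed the test by limma. In each list 1 had an unadjusted p under 0.05, beside 29.8% of all genes. Of 9 T and NK cell markers, 1 rose (CD8A, 0.34) and 1 fell (GNLY, -0.30), and 1 of 10 stromal markers fell (ACTA2, -0.32). The part of these markers in the results was not tested. LP-1/Cfz replicate 3 stood apart, with an interquartile range over all probe sets of 0.338 against 0.230 to 0.264 on the other 5 arrays, so that values without it are given where it carries a result.

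TDO2, QPRT and KYNU rose in LP-1/Cfz and AHR fell, when the probe sets of each gene were averaged and tested by limma over 19775 genes at an adjusted p under 0.05. These 4 of 10 genes stand beside 16.7% of all genes that passed in either direction, 6.72% higher and 10% lower. Probe set by probe set, 3 of the 17 passed, 2 higher (TDO2 and QPRT) and 1 lower (KMO), where 11% of all probe sets did, 4.25% higher and 6.76% lower. At an unadjusted p under 0.05 there were 8 of 17, beside 24.3% of all probe sets, and 5 of 10 genes, beside 29.8% of all genes. The groups did not overlap for 10 of the 17 probe sets, 6 higher and 4 lower, and for 30.7% of the array (14.2% higher and 16.5% lower). At the gene level they did not overlap for 7 of 10 genes, 4 higher and 3 lower, where 35.9% of all genes did not (16.6% higher and 19.3% lower). The median log2 fold change of the 17 probe sets was 0.14, against 0.02 for all probe sets. At the fold of 1.7 that the study used as a cutoff, 1 of the 17 lay outside it, as did 1.59% of the array. In these bulk samples, fewer cells with a transcript and less of it per cell cannot be told apart.

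**Figure D1:**
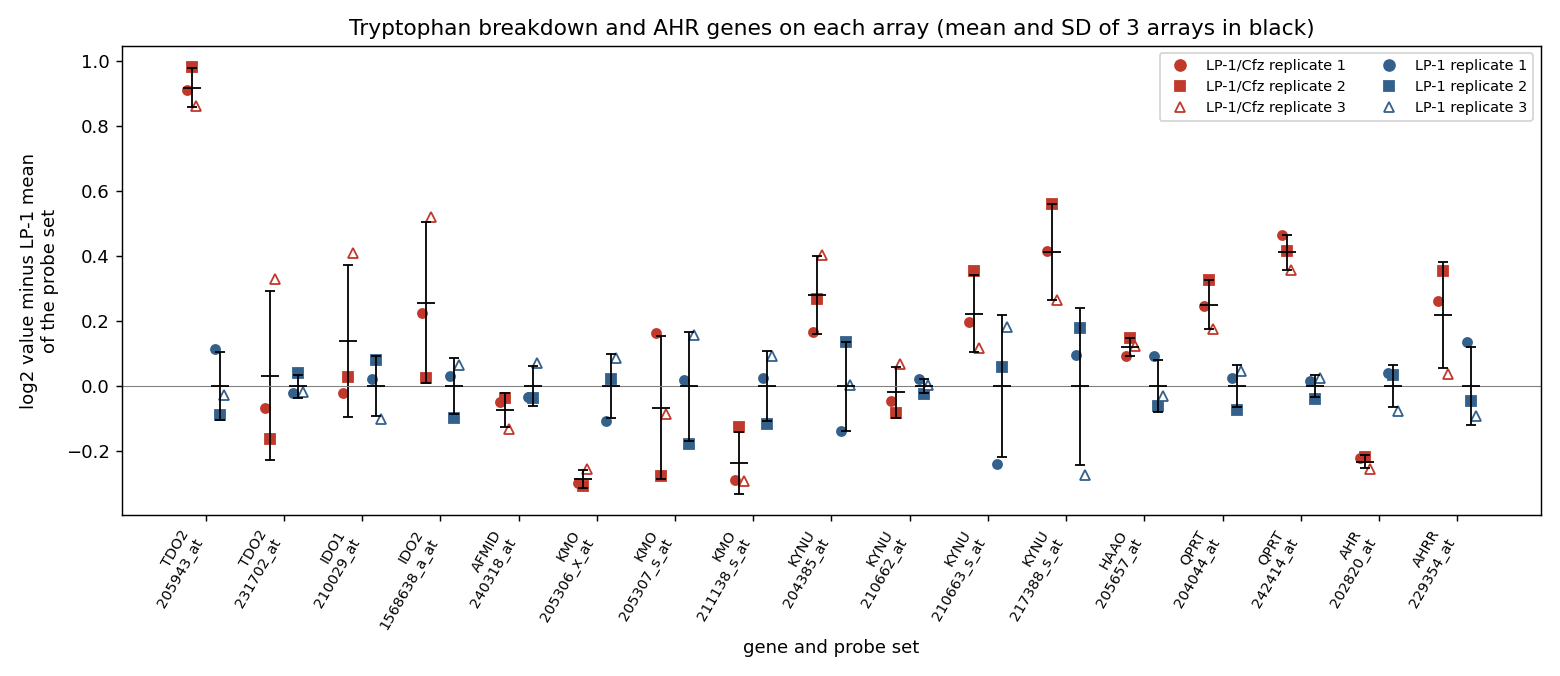
Log2 value of each of the 17 probe sets on each array, minus the LP-1 mean of that probe set, with LP-1/Cfz in red on the left and LP-1 in blue on the right of each pair and black bars for the mean and SD of 3 arrays. TDO2 205943_at separates the groups by 0.92, while open red triangles show that LP-1/Cfz replicate 3 alone lies high for TDO2 231702_at and IDO1.

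The start regions of the genes that passed, and of AHRR, are shown, with 1 of 2 windows each for QPRT and AHRR. AHR and Nrf2 act through short DNA elements. The windows are RefSeq sequence of GRCh38.p14 and run from 250 bases before to 50 bases after a gene start, 5′ to 3′, all on the plus strand of the genome. Of the 10 genes, 8 matched a window and gave 10 windows in all. IDO1 and IDO2 had no match. Capitals mark TNGCGTG, the core that AHR and ARNT bind, or its shorter form GCGTG, which overlaps the longer one. The AHRR window shown is the one that holds TNGCGTG. The AFMID window, which holds other matches, is not shown.
TDO2 (chr4:155903446-155903745): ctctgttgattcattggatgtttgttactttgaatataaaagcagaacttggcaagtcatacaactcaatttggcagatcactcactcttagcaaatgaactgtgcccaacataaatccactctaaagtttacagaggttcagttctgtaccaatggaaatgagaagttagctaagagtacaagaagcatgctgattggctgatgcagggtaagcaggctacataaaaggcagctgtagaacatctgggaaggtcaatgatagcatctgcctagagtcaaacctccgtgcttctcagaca
QPRT (chr16:29678758-29679057): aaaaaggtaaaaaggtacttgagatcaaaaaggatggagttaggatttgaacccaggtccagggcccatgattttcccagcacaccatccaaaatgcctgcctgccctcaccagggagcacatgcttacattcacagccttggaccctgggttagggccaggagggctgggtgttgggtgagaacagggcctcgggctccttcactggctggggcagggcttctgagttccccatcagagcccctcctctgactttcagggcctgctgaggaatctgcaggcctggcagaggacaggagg
KYNU (chr2:142877414-142877713): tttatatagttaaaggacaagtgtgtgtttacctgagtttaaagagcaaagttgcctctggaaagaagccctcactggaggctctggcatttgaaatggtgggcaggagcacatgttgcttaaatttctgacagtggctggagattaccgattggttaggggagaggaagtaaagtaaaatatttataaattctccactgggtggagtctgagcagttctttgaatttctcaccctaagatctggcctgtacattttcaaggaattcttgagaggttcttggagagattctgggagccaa
AHR (chr7:17298402-17298701): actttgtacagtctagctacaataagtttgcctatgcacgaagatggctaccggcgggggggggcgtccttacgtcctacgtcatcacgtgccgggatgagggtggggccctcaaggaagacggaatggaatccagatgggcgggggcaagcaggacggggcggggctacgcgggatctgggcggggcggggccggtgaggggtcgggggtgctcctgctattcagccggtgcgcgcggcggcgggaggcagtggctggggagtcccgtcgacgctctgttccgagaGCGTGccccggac
AHRR (chr5:321464-321763): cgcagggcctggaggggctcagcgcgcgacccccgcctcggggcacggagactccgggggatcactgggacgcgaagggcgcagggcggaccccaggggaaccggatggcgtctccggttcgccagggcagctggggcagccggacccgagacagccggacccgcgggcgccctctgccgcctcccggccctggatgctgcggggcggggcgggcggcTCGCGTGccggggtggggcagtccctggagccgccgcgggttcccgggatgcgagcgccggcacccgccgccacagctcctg

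Searched on both strands, TNGCGTG was found in 1 of the 10 windows, that of AHRR, as TCGCGTG beginning 32 bases before the start. Of all 35116 windows, 5.51% hold it. The shorter GCGTG, added after the longer core had been searched, was found in 4 of the 10 windows, which belong to AHRR, AHR and AFMID, and in 36.5% of all windows. In the AHR window it begins 37 bases after the start. TGACNNNGC, the core of the antioxidant response element that Nrf2 binds, was found in the AFMID window alone, where 13.3% of all windows hold it. The core of the interferon-stimulated response element was found in 0 of the 10 and in 3.57% of all. The TDO2, KYNU and QPRT windows hold none of these letters. The paper counts TDO2 among the Nrf2 targets that rose in LP-1/Cfz and in another resistant line. Sequence outside the windows was not searched. A match is a description of the sequence only.

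TDO2, the dioxygenase that opens the route, had the largest difference of the 17 probe sets. The accession listed in the annotation for probe set 205943_at is a current RefSeq transcript of the gene. On this probe set TDO2 had values of 0.31, 0.38 and 0.26 in LP-1/Cfz replicates 1 to 3, against -0.49, -0.69 and -0.63 in LP-1. All LP-1/Cfz values were above all LP-1 values, with a gap several times the spread inside either group. The means were 0.31 ± 0.06 in LP-1/Cfz and -0.60 ± 0.10 in LP-1 (SD, n = 3 each), a log2 fold change of 0.92 or a fold of 1.89 (95% interval 0.75 to 1.09 in log2, adjusted p = 0.000245 from limma). Of the 54613 probe sets, 141 had a larger difference towards LP-1/Cfz. With any 1 array left out the value stayed between 0.87 and 0.98, and the call was kept in 6 of 6 fits.

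For the second TDO2 probe set, 231702_at, the listed accession is not among the current RefSeq transcripts of the gene. The same holds for the probe sets of IDO1, IDO2, AFMID and AHRR, and for 210662_at, 210663_s_at and 217388_s_at of KYNU. Without probe sequences, a listed accession does not tell which transcripts the probes bind. Probe set 231702_at gave another picture. Its values were -0.16, -0.25 and 0.24 in LP-1/Cfz and -0.11, -0.05 and -0.11 in LP-1. LP-1/Cfz replicate 3 was the highest of the 6 arrays and the other LP-1/Cfz arrays were the lowest. The log2 fold change was 0.03 (95% interval -0.25 to 0.31, adjusted p = 0.905 from limma), and -0.12 without LP-1/Cfz replicate 3 (adjusted p = 0.344). The interval of this probe set lies below that of 205943_at. Averaged over both probe sets, TDO2 had a gene-level difference of 0.48 on the log2 scale (SE 0.06, limma adjusted p = 0.002).

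IDO1 and IDO2, which catalyse the same step as TDO2, did not pass. IDO1 had -0.0004, 0.05 and 0.43 in LP-1/Cfz and 0.04, 0.10 and -0.08 in LP-1. A single array, LP-1/Cfz replicate 3, lay above the rest, and the log2 fold change of 0.14 (95% interval -0.13 to 0.41) became 0.004 without it. IDO2 had 0.18, -0.02 and 0.47 in LP-1/Cfz and -0.02, -0.15 and 0.02 in LP-1, and again LP-1/Cfz replicate 3 was the highest. Its log2 fold change was 0.26 (95% interval -0.02 to 0.54, adjusted p = 0.248), and 0.13 without that array. Without LP-1/Cfz replicate 2 it was 0.37, which passed over genes (adjusted p = 0.0496) and not over probe sets (0.078). AFMID, the formamidase of the second step, had -0.01, 0.01 and -0.09 in LP-1/Cfz and 0.01, 0.01 and 0.11 in LP-1, a log2 fold change of -0.07 (95% interval -0.22 to 0.08).

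KMO, the mitochondrial monooxygenase that commits kynurenine to the NAD branch, was lower on 1 of its 3 probe sets. On 205306_x_at its values were -1.50, -1.51 and -1.46 in LP-1/Cfz and -1.31, -1.19 and -1.12 in LP-1. The groups did not overlap and the LP-1/Cfz arrays lay close together. KMO fell there by 0.29 on the log2 scale (SE 0.07, limma adjusted p = 0.0369). Quantile normalization was run on values already centred for each probe set, so it acts on differences from the baseline and not on intensities. On 205306_x_at it gave -0.06 (adjusted p = 0.681). The other KMO probe sets then had 0.02 and 0.01 in place of negative values. An ending in x_at marks probes that can bind other transcripts, and this call was lost in 5 of 6 fits that left out 1 array (adjusted p up to 0.141), being kept without LP-1 replicate 1. Without LP-1/Cfz replicate 1, 2 or 3 the adjusted p was 0.101, 0.0903 and 0.0543, and without LP-1 replicate 2 or 3 it was 0.12 and 0.141. Probe set 211138_s_at had -1.58, -1.42 and -1.59 in LP-1/Cfz and -1.27, -1.41 and -1.20 in LP-1, which did not overlap by a narrow margin, for a log2 fold change of -0.24 (adjusted p = 0.115). On 205307_s_at, the 1 KMO probe set whose listed accession is a current RefSeq transcript, the groups overlapped at -0.07 (95% interval -0.36 to 0.23). At the gene level KMO had -0.20 and did not pass (adjusted p = 0.0808).

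KYNU, the kynureninase, had positive differences on 3 of 4 probe sets, none of which passed alone. Probe set 217388_s_at had 3.45, 3.59 and 3.30 in LP-1/Cfz and 3.13, 3.21 and 2.76 in LP-1. All LP-1/Cfz arrays lay above all LP-1 arrays, although LP-1 replicate 3 was well under its group, and the log2 fold change was 0.41 (95% interval 0.11 to 0.71, adjusted p = 0.0878). Probe set 204385_at had 0.66, 0.77 and 0.90 in LP-1/Cfz and 0.36, 0.63 and 0.50 in LP-1. Here too the groups did not overlap, at 0.28 (adjusted p = 0.105). Probe set 210663_s_at gave 0.22 with overlapping groups (adjusted p = 0.295) and 210662_at gave -0.02 (95% interval -0.17 to 0.13). Averaged over the 4 probe sets, KYNU rose by 0.22 on the log2 scale (SE 0.06, limma adjusted p = 0.0354). This gene-level call was kept in 1 of 6 fits that left out 1 array, the one without LP-1 replicate 2 (adjusted p = 0.0357). It was lost without LP-1/Cfz replicate 1, 2 or 3 (0.0633, 0.0934 and 0.0566) and without LP-1 replicate 1 or 3 (0.129 and 0.123).

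HAAO, the dioxygenase between KYNU and QPRT, had 0.06, 0.11 and 0.09 in LP-1/Cfz and 0.06, -0.10 and -0.07 in LP-1. The lowest LP-1/Cfz array lay just above the highest LP-1 array, and the log2 fold change of 0.12 did not pass (95% interval -0.03 to 0.27, adjusted p = 0.315).

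QPRT, the last enzyme of the route and the door to NAD, was higher on both of its probe sets. On 242414_at it had 2.01, 1.96 and 1.91 in LP-1/Cfz, against 1.57, 1.51 and 1.57 in LP-1. The groups stood well apart, with means of 1.96 ± 0.05 and 1.55 ± 0.04 (LP-1/Cfz and LP-1, SD, n = 3 each). QPRT rose there by a log2 fold change of 0.41, a fold of 1.33 (95% interval 0.27 to 0.55, adjusted p = 0.00462 from limma), and the call was kept in 6 of 6 fits without 1 array. The accession listed for this probe set is not among the current RefSeq transcripts of QPRT, and that of 204044_at is. On 204044_at it had 1.21, 1.29 and 1.14 in LP-1/Cfz and 0.99, 0.89 and 1.01 in LP-1. These groups did not overlap either, and the log2 fold change of 0.25 lay close to the threshold (adjusted p = 0.057). It passed when LP-1/Cfz replicate 3 was left out, at 0.0463. At the gene level QPRT had 0.33 (SE 0.05, adjusted p = 0.00496).

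AHR, the receptor, has a single probe set, 202820_at. Its values were -0.11, -0.11 and -0.14 in LP-1/Cfz, against 0.15, 0.15 and 0.04 in LP-1. The LP-1/Cfz arrays lay together below 0 and the LP-1 arrays above it. The means were -0.12 ± 0.02 in LP-1/Cfz and 0.11 ± 0.07 in LP-1 (SD, n = 3 each), a log2 fold change of -0.23 (95% interval -0.38 to -0.09). The same values gave an adjusted p of 0.0527 over all probe sets and of 0.0204 over all genes by limma, so that the call depends on the level of the test. Over genes it was lost without LP-1/Cfz replicate 1 (0.0559) and without LP-1 replicate 1 or 2 (0.0873 and 0.0808).

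AHRR, the repressor of AHR, had -0.87, -0.78 and -1.10 in LP-1/Cfz and -0.998, -1.18 and -1.22 in LP-1. LP-1/Cfz replicate 3 lay within the LP-1 range and the other LP-1/Cfz arrays above it. The log2 fold change of 0.22 did not pass (95% interval -0.01 to 0.45, adjusted p = 0.233). Without LP-1/Cfz replicate 3 it was 0.31 (adjusted p = 0.0752 over probe sets and 0.0439 over genes), and after quantile normalization 0.39 (adjusted p = 0.0307 over probe sets).

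**Figure D2:**
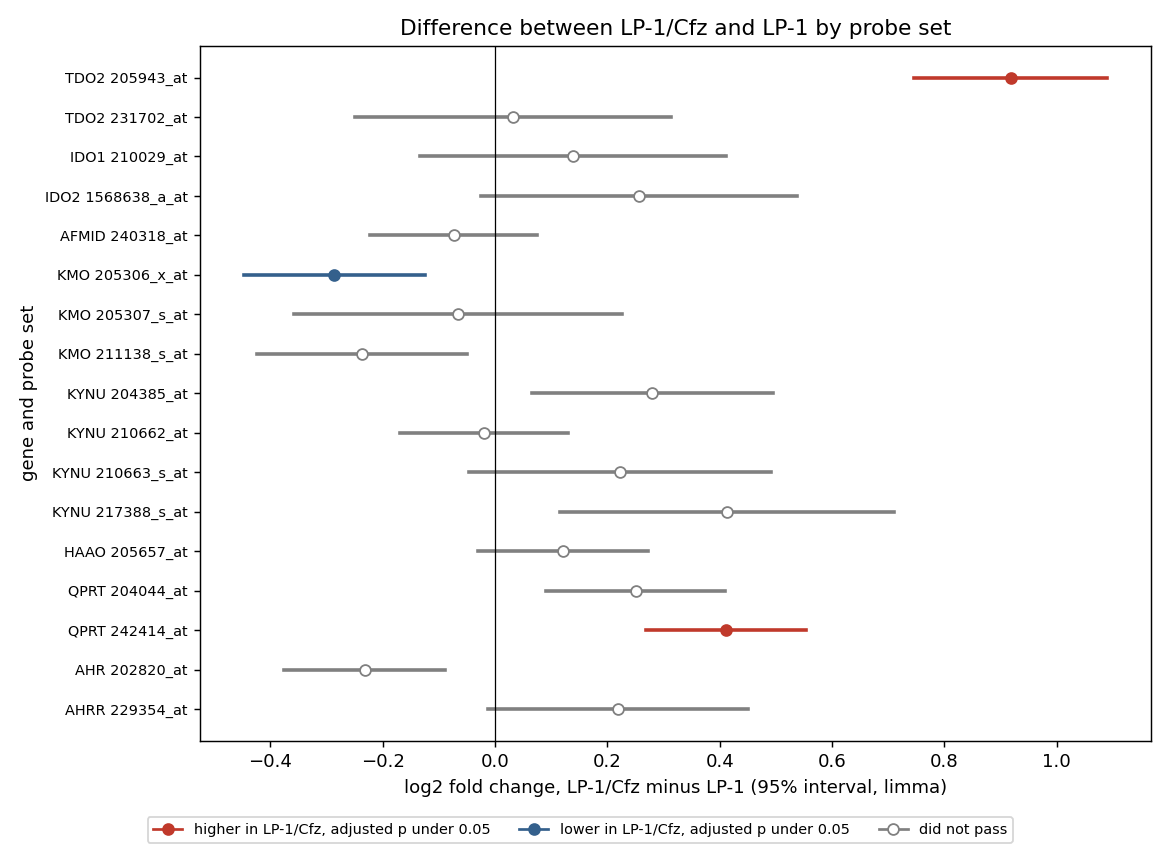
Log2 fold change of LP-1/Cfz minus LP-1 for each of the 17 probe sets, with its 95% interval from limma. Filled points passed at an adjusted p under 0.05 over all probe sets. TDO2 205943_at (0.92) and QPRT 242414_at (0.41) lie above 0, KMO 205306_x_at (-0.29) below it, and the other 14 did not pass.

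With 3 arrays a group, a two-sided exact permutation test of a single probe set has 20 splits and cannot go below p = 0.1. This smallest value was reached by the 10 probe sets whose groups did not overlap, so that calls rest on the limma fit, which shares the spread over all probe sets.

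Around these genes, 12 of the 63 measured genes in the 7 further pathway lists passed the test at the gene level, 5 higher and 7 lower. This is 19% of them, near the 16.7% of all genes. Of 8 carriers of tryptophan and kynurenine, 2 rose and 6 did not pass, with a list median of 0.07 against 0.02 for all genes. SLC16A10, the aromatic amino acid carrier TAT1, had 0.78, 0.73 and 0.51 in LP-1/Cfz, against -0.11, -0.15 and -0.19 in LP-1. The groups stood well apart, and SLC16A10 rose by 0.83 on the log2 scale at the gene level (SE 0.08, adjusted p = 0.000304), passing on 3 of 3 probe sets. SLC7A11, the cystine and glutamate exchanger, through which kynurenine can also pass, rose by 0.80 (adjusted p = 0.000236). Among the 6 carrier genes that did not pass were SLC7A5 (0.03) and SLC3A2 (0.10), the chains of the main tryptophan carrier.

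Of 10 further genes of NAD synthesis, 2 rose and 8 did not pass (median 0.07). NAMPT, which salvages nicotinamide, had 0.55, 0.54 and 0.40 in LP-1/Cfz and 0.11, 0.05 and 0.12 in LP-1. The groups did not overlap, and NAMPT rose by 0.41 at the gene level (SE 0.06, adjusted p = 0.00251) and on 4 of 4 probe sets. NADK2, the NAD kinase of mitochondria, rose by 0.27 (adjusted p = 0.0278), a call kept in 1 of 6 fits without 1 array. NADK2 lost it without LP-1/Cfz replicate 1 or 2 and without any LP-1 array, with adjusted p up to 0.105.

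Of 8 genes in the side branches of kynurenine and at the end of its breakdown, 1 fell and 7 did not pass (median -0.01). GCDH, the glutaryl-CoA dehydrogenase shared with lysine breakdown, had -0.45, -0.46 and -0.52 in LP-1/Cfz and -0.08, -0.15 and -0.09 in LP-1. Both groups were tight and far from each other, and GCDH fell by 0.37 at the gene level (adjusted p = 0.00183), passing on 2 of 2 probe sets. Of 11 genes for the other fates of tryptophan, such as charging of its tRNA, serotonin and melatonin, 0 passed by limma, and 0 had an unadjusted p under 0.05 (range -0.22 to 0.15, median -0.09).

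Among 11 measured AHR targets, 0 rose, 2 fell and 9 did not pass (median 0.03). CYP1A1, the cytochrome that is the classical readout of AHR, had -0.40, -0.10 and -0.22 in LP-1/Cfz, against 0.22, 0.39 and 0.10 in LP-1. Every LP-1/Cfz value was negative and every LP-1 value positive, with a wide spread in both groups. CYP1A1 fell by 0.48 on its single probe set (95% interval -0.70 to -0.25 at the gene level, adjusted p = 0.0131 from limma), a call kept in 6 of 6 fits without 1 array. CYP1B1, a related target, had -0.07 with overlapping groups and 0 of 4 probe sets passing. NQO1, the quinone reductase, which Nrf2 also controls, fell by 0.26 (adjusted p = 0.013). The NQO1 call was lost without LP-1 replicate 1 or 3 (adjusted p = 0.0617 and 0.0502). Of 7 measured AHR partners 1 fell, the coactivator NCOA2 (-0.21, adjusted p = 0.0383), on 1 of its 4 probe sets. NCOA2 kept its call in 1 of 6 fits without 1 array, the one without LP-1/Cfz replicate 2, and lost it after quantile normalization (-0.14, adjusted p = 0.125). ARNT, the partner on DNA, had 0.12 (adjusted p = 0.184).

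Of 8 measured genes of the interferon signalling that induces IDO1, with 2 that restrain it among them, 1 rose and 3 fell (median -0.13). The gene that rose was BIN1, whose loss raises Ido1 in mouse cells. BIN1 had 0.89, 1.03 and 0.98 in LP-1/Cfz and 0.05, 0.01 and 0.02 in LP-1. No other gene of the 7 lists had as large a difference, 0.94 on the log2 scale (SE 0.05, adjusted p = 2.59e-05), and BIN1 passed on 4 of 5 probe sets. IRF1, the transcription factor that acts on the IDO1 promoter, had -1.62, -1.77 and -1.71 in LP-1/Cfz and -1.24, -1.28 and -1.26 in LP-1. IRF1 fell by 0.44 (adjusted p = 0.00134) and on 2 of 2 probe sets. After quantile normalization its difference was -0.18 (adjusted p = 0.0319). IFNGR1, a chain of the interferon gamma receptor, and IRF9, a factor of interferon signalling, fell by 0.26 (adjusted p = 0.0155) and 0.25 (adjusted p = 0.0145). Both calls were kept in 3 of 6 fits without 1 array. IFNGR1 lost its call without LP-1 replicate 1, 2 or 3 (adjusted p = 0.052, 0.0546 and 0.0693), and IRF9 without LP-1/Cfz replicate 1 and LP-1 replicates 1 and 3 (0.0502, 0.0656 and 0.0669).

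**Figure D3:**
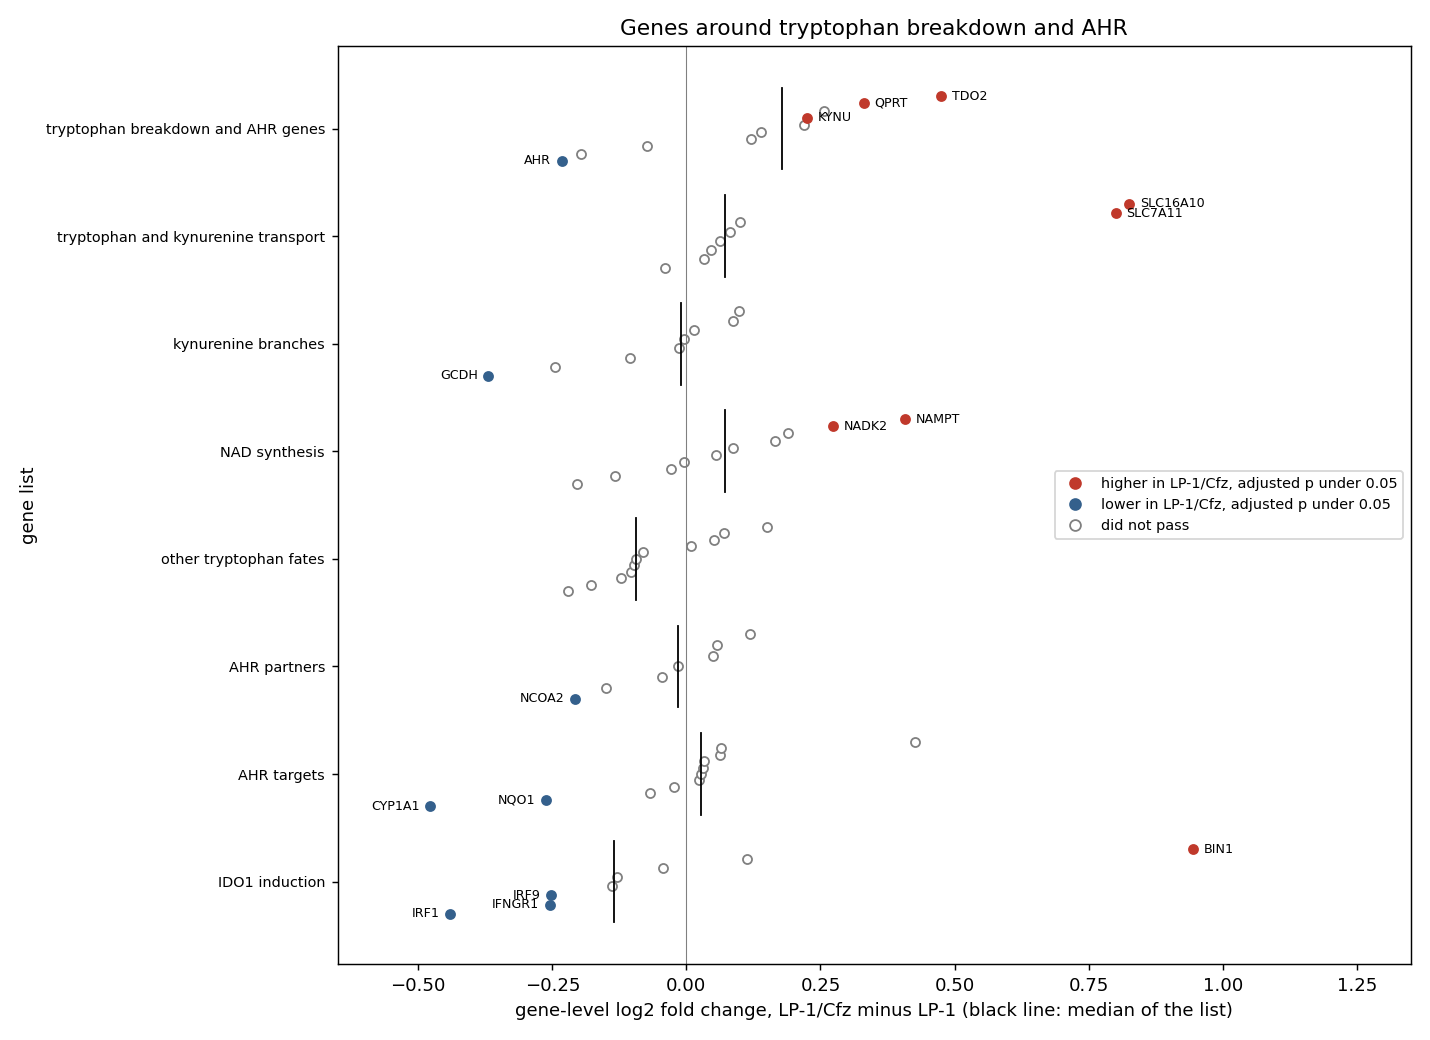
Gene-level log2 fold change of LP-1/Cfz minus LP-1 for the 10 genes and the 7 further lists, 1 point per gene, with the median of each list as a black line. Filled and named points passed at an adjusted p under 0.05 over all genes. BIN1 (0.94), SLC16A10 (0.83) and SLC7A11 (0.80) lie farthest to the right, and CYP1A1 (-0.48) farthest to the left.

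The genes that lie beside the members in RefSeq order were read from the same gene-level fit, 5 measured genes on each side. Of all genes in that fit, 6.72% rose and 10% fell. TDO2, on chromosome 4, rose where 4 of its 10 neighbours fell and 0 rose (median -0.20). The next genes after it in order, chosen after their values were seen, were CTSO, a cathepsin, at -0.95 (adjusted p = 5.17e-05), PDGFC, a growth factor, at -0.86 (adjusted p = 5.08e-05) and GLRB, a glycine receptor chain, at -1.18 (adjusted p = 0.000104). The fourth that fell, GUCY1A1, a subunit of guanylate cyclase, lies before it (-0.24, adjusted p = 0.0185). AHR, on chromosome 7, fell where 1 of 10 neighbours rose (TSPAN13, 0.80) and 0 fell (median 0.17). Beside QPRT and KYNU, 1 of 10 neighbours fell in each case and 0 rose, with medians of 0.05 and 0.04.

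**Figure D4:**
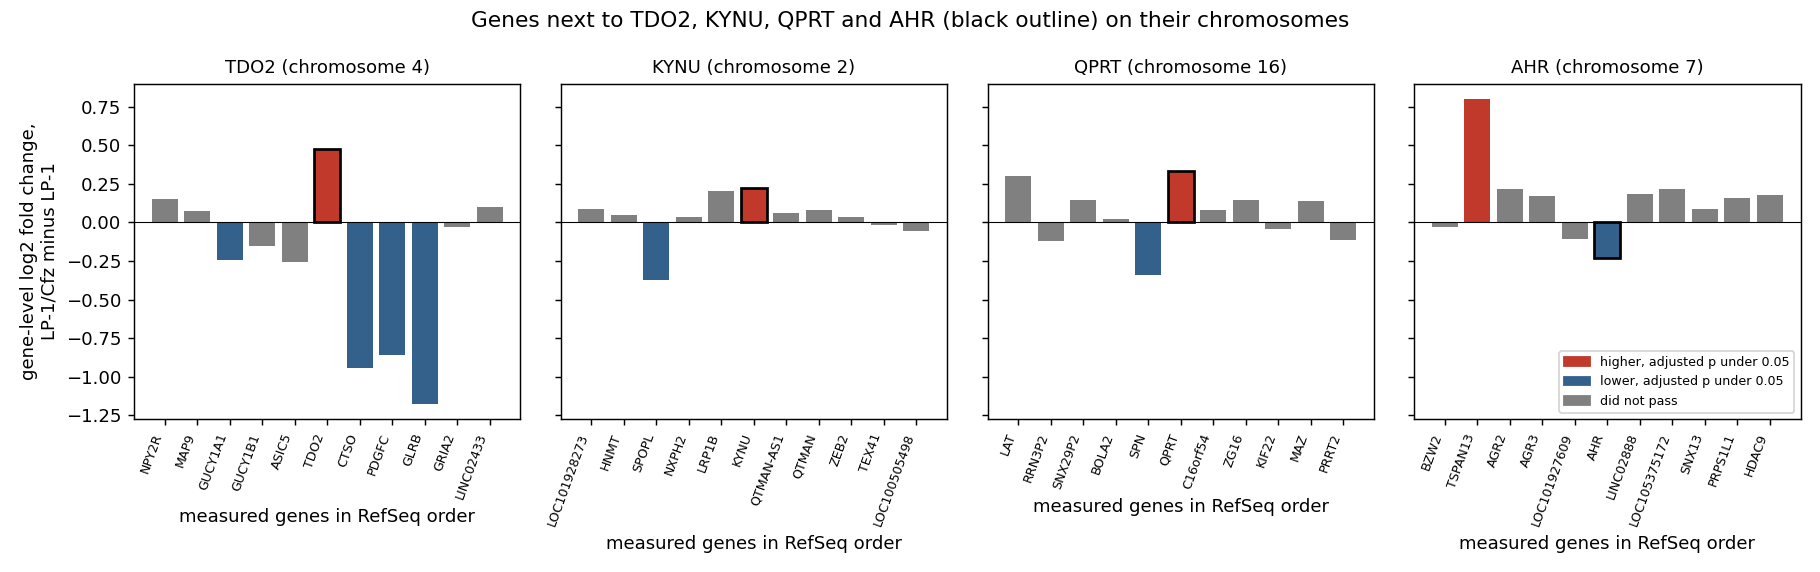
Gene-level log2 fold change of LP-1/Cfz minus LP-1 for TDO2, KYNU, QPRT and AHR (outlined) and the 5 measured genes on each side in RefSeq order. TDO2 (0.48) stands directly before CTSO (-0.95), PDGFC (-0.86) and GLRB (-1.18).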

How the data were processed

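RNA of 3 LP-1/Cfz and 3 LP-1 samples had been measured on 1 array each. The authors deposited log2 values, made with RMA by the submitters' processing notes and centred for each probe set on an unstated baseline. Fold changes listed by the study were used to check the scale and the direction. The labels give 4% serum, the paper another content. Of 54613 probe sets, 41091 name a single gene, 1801 several and 11721 none, by the platform annotation. A gene's value was the mean of its single-gene probe sets. Groups were compared by limma 3.58.1 in R 4.3.3 (lmFit, eBayes, two-sided, no covariate) and p-values were adjusted by Benjamini-Hochberg, once for the 54613 probe sets and once for the 19775 genes. The fit was tested on simulated data.

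The members and lists were chosen with earlier results of these data known. Named are all 10 members, in each list up to 3 genes per direction that passed with the largest change, CYP1A1 and CYP1B1, and genes said to be chosen later. SLC7A5, SLC3A2 and ARNT were named outside this rule for their roles, and UGT1A6 after its value was seen. Some listed genes are not reported here. Precision is limited by the number of arrays. Alternatives were each array left out, the replicate number as a block, quantile normalization, median centring, array weights, a trended prior, a filter on range, a minimum fold of 1.2 and another choice of probe set per gene.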

Additional observations from a re-analysis of the deposited data

How the results depend on the processing

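With 1 array left out, 2 to 3 of the 17 probe sets passed, beside 3395 to 5355 probe sets of the whole array. At the gene level 2 to 4 of the 10 genes passed, with 7 to 13 list genes and 2080 to 3183 of all genes. The lowest of these probe set counts over the array came without LP-1 replicate 3, and 3453 and 3530 passed without LP-1 replicates 1 and 2. Against a minimum fold of 1.2, 1 of the 17 probe sets (TDO2 205943_at), 0 of the 10 genes, 3 list genes and 1312 probe sets of the array passed. At the gene level in that fit TDO2 had an adjusted p of 0.136. Quantile normalization gave 6 of the 17 and array weights 5. How many probe sets of the whole array passed in these fits is not given here, so these counts show nothing particular to the members. As the values were already centred for each probe set, the count after quantile normalization cannot show what normalizing the intensities would give. With quantile normalization KYNU 217388_s_at, QPRT 204044_at, AHR and AHRR passed (adjusted p = 0.0348, 0.0338, 0.0423 and 0.0307), while KMO 205306_x_at had -0.06 in place of -0.29 (adjusted p = 0.681). The cause was not tested. With the probe set of largest range in place of the mean, 2 of the 10 genes passed, KYNU (0.0788) and AHR (0.0638) being lost. The share of all genes that passed in that fit is not given here. At the threshold, the KYNU gene-level call was also lost with median centring (0.0501) and the range filter (0.0594), and that of KMO 205306_x_at with the replicate block (0.0658), the trended prior (0.0693) and the range filter (0.0802). AHR 202820_at passed with median centring (0.0493). None of the members that passed changed sign under these alternatives. Replicate numbers did not pair the samples: deviations from the group means correlated at -0.05, 0.13 and -0.01 for the same numbers, and 2 of 6 samples correlated best with their own number. With the replicate block, 3 of the 17 probe sets, 4 of the 10 genes, 12 list genes and 4544 probe sets of the array passed.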

Other observations

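UGT1A6, a conjugating enzyme that AHR switches on, had the largest positive difference among the AHR targets, a gene-level log2 fold change of 0.43 with groups that did not overlap, and did not pass by limma (adjusted p = 0.0689). It was 0.28 without LP-1/Cfz replicate 3 (adjusted p = 0.0931). Leaving out LP-1/Cfz replicate 2 gave 0.54, which passed (0.0296). UGT1A6 also passed with the range filter (0.0391) and the replicate block (0.0487). UGT1A6 shares exons with the other UGT1A transcripts, so that its value is uncertain.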
